A study of Mus musculus with 2 samples.

Results

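The amyloid precursor family (App, Aplp1 and Aplp2), the beta-secretase Bace1, the prion protein gene Prnp, the beta-synuclein gene Sncb and the BRI protein genes Itm2b and Itm2c were followed in the ribosome footprints of neonatal mouse brain. These 8 genes were taken by symbol from a list of genes linked to neurodegeneration, and all 8 were found among the 45578 genes of the deposited table. For each gene the values are those of the transcript with the highest count summed over both libraries. The brains came from P5 (postnatal day 5) control mice, heterozygous Taiwanese mice of genotype Smn+/-; SMN2tg/0 on a congenic FVB background. They carry 1 working copy of mouse Smn together with the human SMN2 transgene, so they are the control genotype of a spinal muscular atrophy colony and not wild-type mice. The labels give 2 biological replicates of this 1 group and no other condition. The series' design text speaks of extracts from a mouse, so whether the replicates are separate animals is unclear, and p-values here set the difference between these 2 libraries against counting error alone. RiboLace captures ribosomes on beads that carry a puromycin analogue, which binds ribosomes engaged in elongation. The RNA left inside the captured ribosomes after nuclease digestion was sequenced. The table also holds counts on non-coding genes, so a count is a captured fragment and not in every case a translating ribosome.

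The amyloid precursor protein is a single-pass membrane protein that is cut either by alpha-secretases of the ADAM family or by the beta-secretase Bace1. The gamma-secretase complex then cuts the remaining stub within the membrane, and the route that starts with Bace1 releases amyloid-beta. Prion protein is a membrane-anchored glycoprotein whose misfolded form is the agent of prion disease, synucleins are small presynaptic proteins that bind membranes, and the BRI proteins are type II membrane proteins with a BRICHOS domain that furin cleaves. Neurons make all of these proteins, and glia make several of them too.

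At the gene level the libraries held 343552 counts in replicate 1 and 120282 in replicate 2, and after TMM scaling of these totals 1 count was worth 2.71 and 8.93 CPM, the count scaled to a common library size. Protein-coding genes held 81.4% of the gene counts in replicate 1 and 73.1% in replicate 2. All 7 neuronal markers and all 7 markers of astrocytes and radial glia were detected in both libraries. The neuronal list held 0.677% and 0.672% of gene counts, and the astrocyte and radial glia list 0.326% and 0.312%. The microglial list held 0.0172% and 0.0150%, and the erythroid list 0.408% and 0.384%. Globin paralogs may share fragments, which the erythroid sum would then count more than once. In replicate 1, Hba-a1 and Hba-a2 had 343 and 362 counts, and Hbb-bt and Hbb-bs 345 and 351. Of the liver genes Alb, Apoa1 and Serpina1a, only Serpina1a had a count, and that was 1 in replicate 2. The skeletal muscle list had 72 and 24 counts, of which Acta1, an actin gene that can share fragments with the abundant actins of other cells, held 70 and 22. Of the choroid plexus list, Ttr had 395 and 153 counts, but Folr1 had only 4 and 2. Kl had 2 and 0 on its longest coding transcript and 2 and 2 on a retained-intron form. In whole brain, fewer cells of a type and less RNA per cell cannot be told apart.

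Together the 8 genes held 1456 counts in replicate 1, or 0.424% of gene counts (95% Wilson interval 0.403 to 0.446), and 535 in replicate 2, or 0.445% (0.409 to 0.484). Of the counts on protein-coding genes they held 0.521% and 0.608%. App alone made up 35.4% of these counts in replicate 1 (33.0 to 37.9) and 41.1% in replicate 2 (37.0 to 45.3). The Wilson and other intervals given here cover counting error only, with every count taken as independent. No molecular identifiers were used, and whether PCR copies of a fragment were removed is not given in the sources used here. If such copies were counted again, the intervals can be too narrow even for counting error.

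To compare levels between genes, CPM values were divided by the length of the coding sequence, which gives a coding density in CPM per kilobase. Its range over the 8 genes was 17.7-fold. App, Itm2b and Sncb formed the upper end, at 805 ± 193, 744 ± 51.8 and 631.2 ± 13.04 CPM per kilobase (each SD, n = 2). Aplp1 followed at 400.2 ± 51.0 and Prnp at 380.4 ± 6.86, then Itm2c at 268 ± 10.4 and Aplp2 at 208 ± 8.44, with Bace1 far below at 45.6 ± 11.0 (each SD, n = 2). The median over the 8 genes was 369.8 in replicate 1 and 411 in replicate 2.

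Not every step in this order exceeded the spread. Of the 7 neighbouring pairs, App with Itm2b and Aplp1 with Prnp overlapped between the libraries, and both pairs changed places from one library to the other. Itm2b stood above App in replicate 1, at 707 against 668 CPM per kilobase, and below it in replicate 2, at 780.4 against 941. In 4 of the 7 pairs the counting interval of the ratio of densities included 1 in both libraries: App with Itm2b, Itm2b with Sncb, Aplp1 with Prnp, and Itm2c with Aplp2. Sncb with Aplp1 and Prnp with Itm2c were separated beyond counting error in replicate 1 alone. The step from Aplp2 to Bace1 was the one separated in both libraries, with ratios of 5.34 (95% exact binomial interval 3.38 to 8.85) and 4.01 (1.96 to 9.23).

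**Figure D1:**
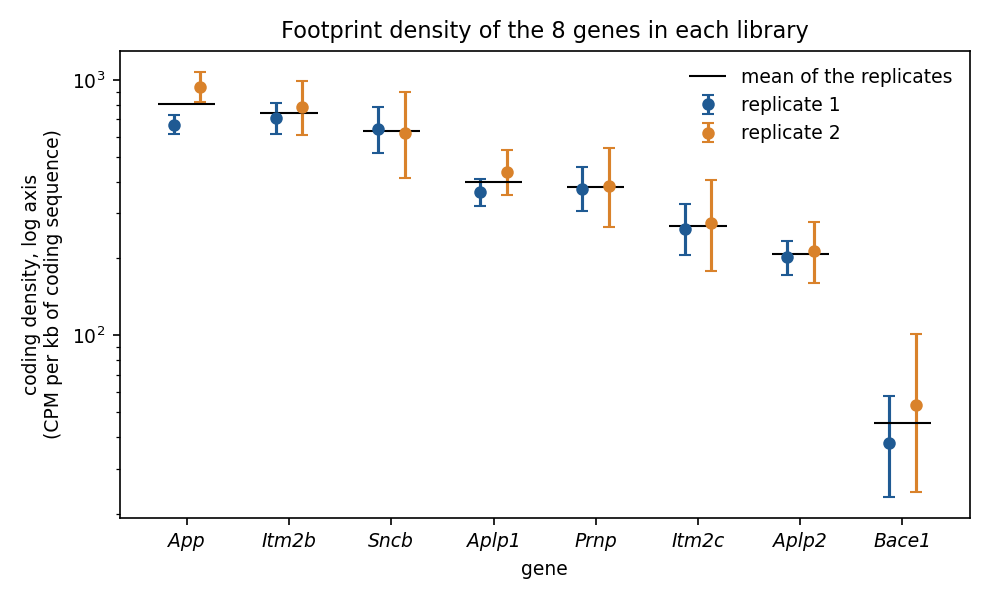
Coding density of the 8 genes on a log axis, in CPM per kilobase of coding sequence, for replicate 1 (blue) and replicate 2 (orange). Vertical bars are 95% exact Poisson intervals of the counts and black lines the means of both replicates. App, Itm2b and Sncb lie highest and Bace1 lowest in both libraries, and App is the gene whose bars do not overlap.

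Of 20757 protein-coding genes with a coding length on the transcript used, 4294 averaged 10 counts or more and were ranked. Among the 8 genes, 7 lay above the median of these 4294. That median was 62.3 CPM per kilobase. App ranked 113, Itm2b 126 and Sncb 169 in mean coding density, within the upper 2.63%, 2.93% and 3.94% of these genes. Aplp1 and Prnp, at ranks 335 and 354, stood in the upper 7.80% and 8.24%. Itm2c reached the upper 12.7%, Aplp2 the upper 17.2% and Bace1, at rank 2641, the upper 61.5%. Coding length changed the picture for long and short members: in CPM, which is not corrected for length, App ranked 17 and Aplp1 75, while Sncb fell to rank 461. The genes adjacent to App in coding density were Psma3, a proteasome subunit, at 806 ± 146 on a transcript with a coding sequence of only 108 nucleotides, and the histone gene Hist1h3d at 803 ± 63.0 (each SD, n = 2). Next to Bace1 stood the neuronal RNA-binding protein gene Elavl4 at 45.6 ± 1.28 and the haem oxygenase gene Hmox2 at 45.6 ± 24.5 (each SD, n = 2). Histone copies of near-identical sequence may share fragments, so the value of Hist1h3d is uncertain.

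**Figure D2:**
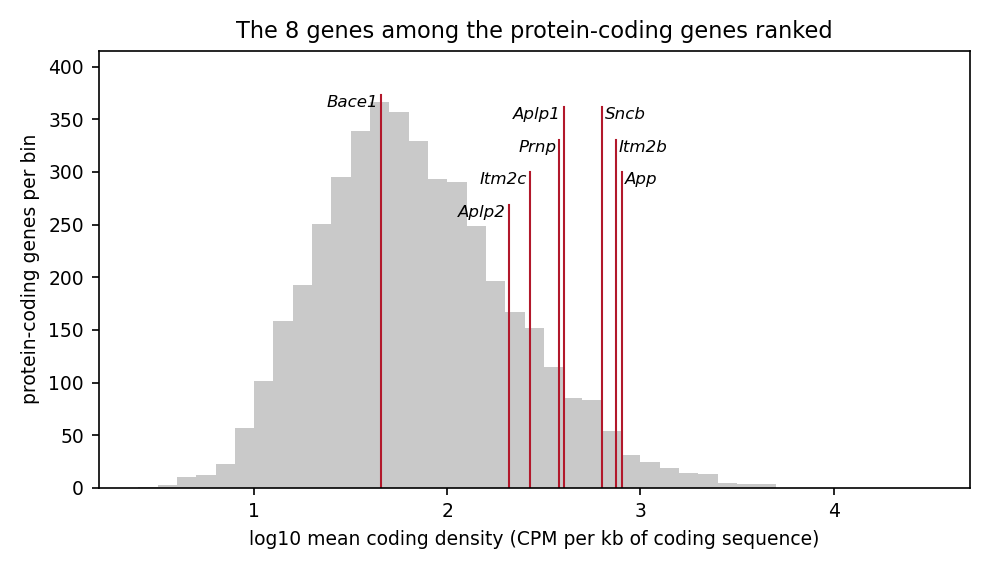
Histogram of the log10 mean coding density of 4294 protein-coding genes (grey, genes per bin), with the 8 genes marked by red lines. Bace1, at 45.6 CPM per kilobase, sits in the bulk of the distribution and the other 7 genes to the right of the median of 62.3.

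Within the amyloid precursor family the order App, Aplp1, Aplp2 was the same in both libraries. App (ENSMUSG00000022892), the precursor of amyloid-beta, had 515 counts in replicate 1 and 220 in replicate 2, at 668 and 941 CPM per kilobase. The table lists 1 transcript of App, with a coding sequence of 2088 nucleotides, or 695 codons before the stop. This is the length of the form without the Kunitz protease inhibitor domain, which prevails in neurons. Aplp1 (ENSMUSG00000006651), the family member that is largely restricted to the nervous system, had 264 and 96 counts over 1965 coding nucleotides, at 364 and 436 CPM per kilobase. Aplp2 (ENSMUSG00000031996), a widely expressed paralog, had 168 and 54 counts over 2256 coding nucleotides, at 201.8 and 214. The ranges of the 3 genes did not overlap between the libraries.

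As a ratio of coding densities within a library, which does not depend on scaling, App stood 1.84 times above Aplp1 in replicate 1 (95% exact binomial interval 1.58 to 2.14) and 2.16 times in replicate 2 (1.69 to 2.77), a mean of 2.00 ± 0.227 (SD, n = 2). Over Aplp2 the ratio was 3.31 (2.78 to 3.97) and 4.40 (3.26 to 6.04), or 3.86 ± 0.771 (SD, n = 2). Aplp1 exceeded Aplp2 by 1.80 times and 2.04 times. App took 54.4% of the family's counts in replicate 1 and 59.5% in replicate 2, Aplp1 27.9% and 25.9%, and Aplp2 17.7% and 14.6%. None of the intervals of these 3 ratios included 1.

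Bace1 (ENSMUSG00000032086), the aspartyl protease that makes the first amyloidogenic cut, had the lowest coding density of the 8 genes. It had 21 counts in replicate 1 and 9 in replicate 2, at 37.8 and 53.4 CPM per kilobase over 1506 coding nucleotides. The densities of its substrate App were 17.7 times higher in replicate 1 (11.4 to 28.8) and 17.6 times higher in replicate 2 (9.12 to 39.1), with a mean ratio of 17.7 ± 0.0405 (SD, n = 2). The small SD is far narrower than the counting intervals, which rest on the few Bace1 counts. Of the Bace1 transcript, 75.1% lies outside the coding sequence, the largest such share among the 8 genes. Its paralog Bace2, which acts mainly outside the brain, had 2 counts and 1 count, so no level could be told from that of a few stray fragments.

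The other proteases of the pathway were likewise sparse. Because the transcript with the highest count was a short fragment for some of these genes, the levels of the lists are given on the protein-coding transcript with the longest coding sequence. On that scale all 11 secretase genes examined, Bace1 included, had a lower mean coding density than Aplp2. They ranged from 3.20 to 103 CPM per kilobase with a median of 19.8. On its transcript with the highest count, a nonsense-mediated decay form with 189 coding nucleotides, Ncstn would stand above Aplp2 at 315. Adam10, the main alpha-secretase of neurons, was highest among the alpha-secretases with 38 and 8 counts and a coding density of 38.8 ± 9.91 (SD, n = 2), and Adam17 was lowest with 6 and 0. In the gamma-secretase complex, the small subunit gene Psenen stood at 177 CPM per kilobase in replicate 1 on 20 counts and at 29.2 in replicate 2 on 1 count. Psen2, the lowest of that list, had 4 and 0 counts. The 6 gamma-secretase genes given here, an incomplete list of the complex, had on their transcripts with the highest count 90 counts in replicate 1, or 0.0262% of gene counts (95% Wilson interval 0.0213 to 0.0322), and 8 in replicate 2, or 0.00665% (0.00337 to 0.0131). All 6 had a lower coding density in replicate 2, so their means rest mostly on replicate 1. A count of 0 in replicate 2 allows a share of up to 0.00249% of gene counts.

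App density was 22.1 ± 10.6 times that of Adam10 (SD, n = 2). The ratio was 14.6 in replicate 1 (10.5 to 20.9) and 29.6 in replicate 2 (14.8 to 69.5). A second Adam10 transcript with the same summed count, 46, and a shorter coding sequence gave a mean ratio of 13.4 ± 4.02 (SD, n = 2).

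Among the cytosolic adaptors of App, 8 of 9 listed genes were in the table. Apba1, a neuronal adaptor that binds the App tail, was the highest at 112 ± 20.9 CPM per kilobase on 91 and 36 counts, and Apba3 the lowest of those with a count on that transcript, at 3.16 ± 4.47 on 4 and 0 counts (each SD, n = 2). Numb had no count on its longest coding transcript in either library. Of the 10 sorting factors and receptors, the retromer subunit gene Vps35 was highest at 95.6 ± 2.14 and the trafficking adaptor gene Gga3 lowest at 8.72 ± 5.23 (each SD, n = 2). Of the 4 proteases that degrade amyloid-beta, Ide, insulin-degrading enzyme, was highest at 18.1 ± 4.22, and Mme, neprilysin, was lowest with 2 and 0 counts. App thus stood above every gene in these 3 lists, as did Aplp1 and Aplp2, whose coding densities of 400.2 and 208 exceeded the 112 of Apba1.

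**Figure D3:**
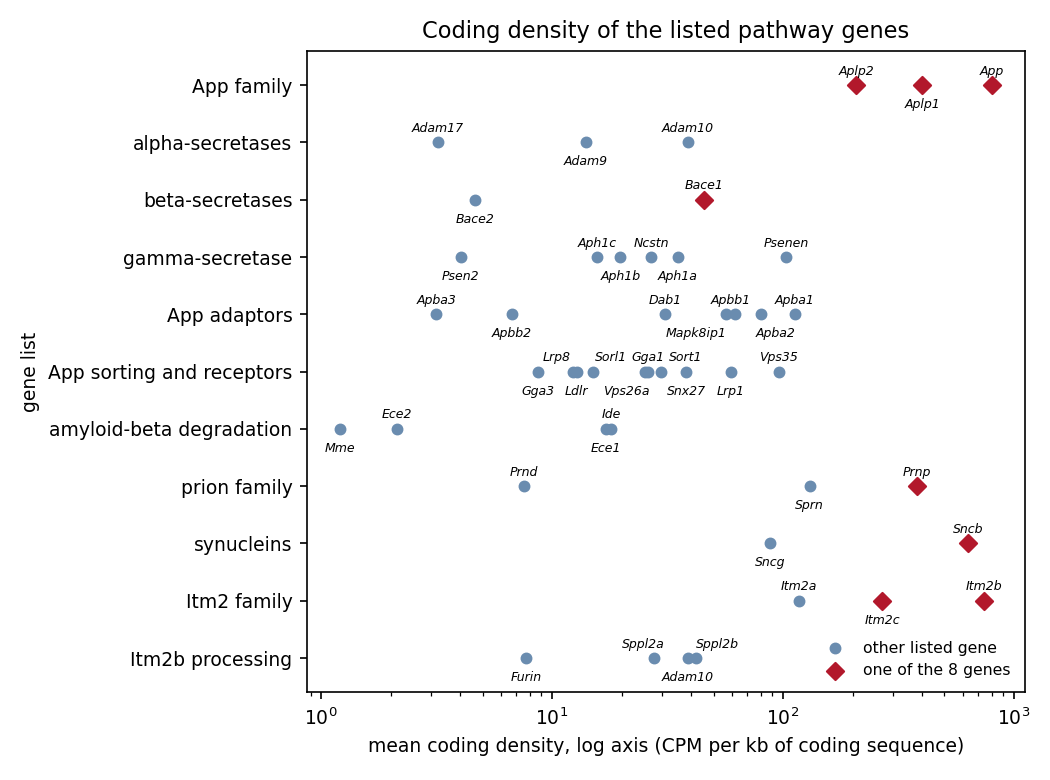
Mean coding density over both replicates, on a log axis in CPM per kilobase of coding sequence, of the listed pathway genes on their longest coding transcript. Red diamonds are the 8 genes and blue circles the other listed genes; Numb, at 0, and Apbb3, not matched, are not drawn. App, Aplp1 and Aplp2, from 208 to 805, lie to the right of the secretase genes shown, which end at 103.

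Prnp (ENSMUSG00000079037), which encodes the cellular prion protein, had 106 counts in replicate 1 and 33 in replicate 2. Its coding density was 376 and 385 CPM per kilobase over 765 coding nucleotides, nearly the same in both libraries. The shadow of prion protein gene Sprn, a brain-expressed relative, had 23 and 6 counts at 131 ± 13.9 CPM per kilobase (SD, n = 2). Prnp exceeded it by 2.67 times in replicate 1 (1.69 to 4.40) and by 3.19 times in replicate 2 (1.32 to 9.32). Prnd, which encodes the prion-like protein doppel of the testis, had 3 counts in replicate 1 and 0 in replicate 2, at or under the limit of 3 counts that a count of 0 allows.

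Sncb (ENSMUSG00000034891), which encodes beta-synuclein, a presynaptic protein of the brain, had 95 and 28 counts. Over a coding sequence of only 402 nucleotides this gave 640.4 and 622 CPM per kilobase. The gamma-synuclein gene Sncg, known from peripheral and sensory neurons, had 11 and 4 counts and 88.1 ± 11.2 CPM per kilobase (SD, n = 2). Sncb stood 7.99 times above it in replicate 1 (4.27 to 16.5) and 6.48 times in replicate 2 (2.27 to 25.4).

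Itm2b (ENSMUSG00000022108) encodes BRI2, mutated in familial British and Danish dementia and a binding partner of App. It had 209 and 70 counts over 801 coding nucleotides, at 707 and 780.4 CPM per kilobase. Itm2c (ENSMUSG00000026223), which encodes the brain-enriched BRI3, had 78 and 25 counts over 810 nucleotides, at 261 and 276. Itm2b exceeded Itm2c by 2.71 times in replicate 1 (2.08 to 3.56) and 2.83 times in replicate 2 (1.77 to 4.67), a mean of 2.77 ± 0.0862 (SD, n = 2). Itm2a, the third gene of the family, stood lower still at 117 ± 10.3 (SD, n = 2), with Itm2c above it by 2.38 times (1.56 to 3.72) and 2.22 times (1.05 to 5.00). None of these intervals included 1.

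The enzymes known to process BRI2 were sparse. Furin, the proprotein convertase that cuts it near its carboxyl end, had 7 and 2 counts, at 7.73 ± 0.331 CPM per kilobase (SD, n = 2). Itm2b stood above Furin by 88.8 times in replicate 1 (42.3 to 224) and 104 times in replicate 2 (27.8 to 876). Sppl2b, an intramembrane protease, was the highest of that list at 42.1 ± 13.2 (SD, n = 2).

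The table lists 20 transcripts for the 8 genes. Pairs of protein-coding isoforms that differ in length were compared by their counts. Forms that are not protein-coding were left out, though retained-intron forms without a coding sequence held counts too. Sncb-002, of 469 nucleotides, had 43 and 11, Sncb-003, of 822, had 48 and 19, and Itm2c-002, of 768, had 20 and 7. Sncb-001 and Sncb-004 have the same coding length and differ by 629 nucleotides of untranslated sequence. The longer one had only 8 more counts in replicate 1 and 5 more in replicate 2, where the coding rate of the shorter one would give 136 and 36.0. Bace1-001 exceeds Bace1-002 by 102 coding and 1915 untranslated nucleotides, and it had 1 more count in each library against 28.7 and 11.5 at the coding rate. For Itm2c-001 over Itm2c-003, 765 extra nucleotides, 111 of them coding, held 17 and 3 more counts against 66.8 and 24.1. Per nucleotide of added length, the extra counts were 9.89% ± 5.67 of the coding rate in Sncb, 6.09% ± 3.69 in this Bace1 pair and 19.0% ± 9.20 in Itm2c (each SD, n = 2). Over the much shorter Bace1-006, the 4910 extra nucleotides of Bace1-001, 425 of them coding, went with 10 and 6 more counts, or 32.0% ± 17.0 of the coding rate (SD, n = 2).

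The isoforms of Aplp2 gave no such order. The 2 listed forms, of 751 and 707 codons before the stop, differ by 132 coding nucleotides, and forms of this protein with and without a Kunitz domain are known. The longer isoform had 5 more counts in replicate 1, 168 against 163, and 2 fewer in replicate 2, 54 against 56. At the coding rate of the shorter one, 10.1 and 3.48 more would be held. The table gives lengths and no positions, so which exon differs was not read, and a longer isoform need not contain all of a shorter one.

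Between the libraries, 1 of the 8 genes differed past the threshold, and that gene was App, higher in replicate 2. App stood at 1396 CPM in replicate 1 and 1965 CPM in replicate 2, a 1.41-fold difference or a log2 ratio of 0.49 (95% exact binomial interval 0.26 to 0.72), with a Benjamini-Hochberg adjusted exact binomial p of 0.00119. The test was run on the 5436 genes averaging 10 counts or more, all 8 genes included, and called 4.14% of them, or 0.956% of the 4392 protein-coding genes tested. It compares the reads of these libraries, not conditions. Among the 42 coding genes with at least 500 counts in sum, as App has, 15 or 35.7% were called, all 15 higher in replicate 2, so App was not particular in this. The call was lost with scaling to library totals (log2 ratio 0.29, adjusted exact binomial p = 0.234), with every gene of at least 1 count in each library tested (log2 ratio 0.31, adjusted exact binomial p = 0.286) and with a preset biological coefficient of variation of 0.2 (edgeR exact test, adjusted p = 1). Over the 7 alternatives the adjusted p of App ranged from 0.00114 to 1.

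For the other 7 genes the interval of the log2 ratio included 0. Aplp1, with 715 and 857 CPM, had a log2 ratio of 0.26 (-0.09 to 0.60) and an adjusted exact binomial p of 0.771. Prnp, at 287 and 295 CPM, and Sncb, at 257 and 250.0 CPM, lay closest to equality, with log2 ratios of 0.04 (-0.57 to 0.61) and -0.04 (-0.71 to 0.58). Bace1 had the widest interval, -0.81 to 1.69 around a log2 ratio of 0.50, from 30 counts in sum. The median log2 ratio of the 8 genes was 0.11, with 7 of 8 above 0, against 0.0041 for all genes tested and -0.02 for the coding genes. Of the 42 coding genes with at least 500 counts in sum, 36 were above 0, with a median of 0.25. Ratios above 0 were thus common among genes with counts as high as those of App, the only one of the 8 in that band. The other 7 had from 30 to 360 counts in sum, and the share above 0 among genes with such counts was not determined. Scaling to library totals lowered every ratio by 0.21 and put the median of all genes tested at -0.20, so the sign of the smaller ratios depends on the scaling: Aplp2, Prnp, Itm2b and Itm2c then turned below 0. Of 18 further pathway genes tested, 0 were called by the exact binomial test and 0 by the edgeR exact test with the preset coefficient of variation, and 3 had an unadjusted exact binomial p under 0.05, as did 522 or 9.60% of all genes tested. Of these 3, Lrp1 had a log2 ratio of 0.36, and the gamma-secretase genes Psenen and Ncstn, the only ones of their list tested, had -2.60 and -1.78. The Psenen ratio rests on 20 and 1 counts. That of Ncstn rests on 34 and 3 counts of its nonsense-mediated decay form, whereas its longest coding transcript had 29 and 4. The median log2 ratio of the 18 genes was 0.00027, with 9 of 18 above 0.

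**Figure D4:**
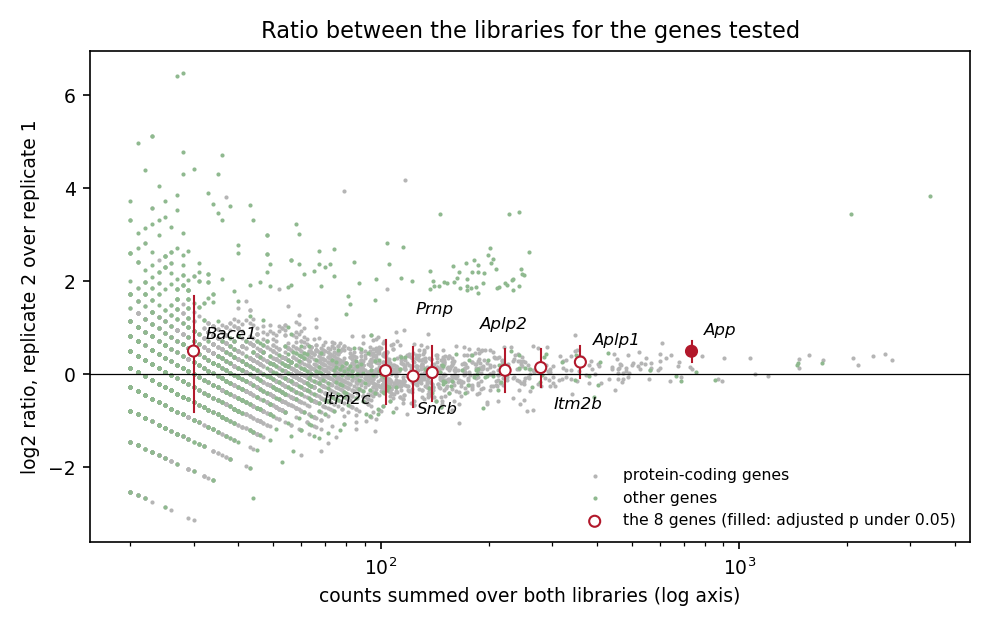
Log2 ratio of replicate 2 over replicate 1 against the counts summed over both libraries (log axis) for the genes tested, protein-coding in grey and others in green, without 10 genes that had 0 counts in one library. Red circles are the 8 genes with 95% exact binomial intervals, filled where the adjusted p is under 0.05. App, with 735 counts and a log2 ratio of 0.49, is the filled one; the intervals of the other 7 cross 0.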

How the data were processed

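Footprint libraries of 2 replicates of P5 control mouse brain were analysed. The authors deposited 1 table of whole-number counts per transcript and replicate, not normalised, with transcript, coding and untranslated lengths. The submitters' processing notes name Trimmomatic 0.36, Bowtie2 2.2.6, SAMtools and GRCm38.p4, without roles; the counting tool, annotation and filters are not given in the sources used here, so no coordinates are given. Count columns were matched to replicates by ctrl, RiboLace and the number; the word early in them is in no label. Some coding isoforms carried nearly equal counts, such as 168 and 163 for Aplp2 in replicate 1. Others did not, such as Bace1-001 and Bace1-006 with 21 and 11. A fragment was taken as counted for each transcript it matches, which is an assumption. Gene totals were summed over 1 transcript per gene: the highest summed count, the longer in a tie. Column sums were 729027 and 225075. Paralogs and pseudogenes may share fragments.

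TMM factors from edgeR 4.0.16 over genes averaging 10 counts or more were 1.07 and 0.931. A 2-sided exact binomial test compared the libraries, with Benjamini-Hochberg adjustment over all 5436 genes (threshold 0.05). On simulated libraries it called 43.5% of 3-fold changes among 5513 genes and 4.5% of 1.5-fold changes among 5489. Intervals are 95% exact or Wilson intervals (SciPy 1.17.1), and a count of 0 allows 3 counts. Alternatives used library totals, DESeq2 1.42.0 size factors, other filters, a preset coefficient of variation, coding genes alone, other isoforms, transcript length and single replicates. The members and lists were chosen with earlier results of these data known. Named were the 8 genes, their listed paralogs, the highest and lowest of each other list, called list genes, and the genes next to the highest and lowest member in coding density. The levels of the lists on the longest coding transcript, and the ratios to Adam10 and the further relatives, were added after the data were seen. Of the genes listed, 2 are not reported here.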

Additional observations from a re-analysis of the deposited data

How the results depend on the processing

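No paired analysis was possible because the series has a single group. The 225 genes called between the libraries (217 higher and 8 lower in replicate 2) numbered 75 among the 764 genes averaging 50 counts or more, 131 when a coefficient of variation of 0.2 was preset, and 22 for protein-coding genes alone. The split moved from 217 higher and 8 lower to 176 and 23 with library totals. The 1 member called became 0 with library totals, 0 with at least 1 count in each library and 0 with the preset variation. With library totals and with at least 1 count in each library, respectively, the log2 ratio turned to -0.12 and -0.10 for Aplp2, to -0.17 and -0.15 for Prnp, to -0.064 and -0.041 for Itm2b and to -0.13 and -0.10 for Itm2c. That of Prnp also turned to -0.037 among genes averaging 50 counts or more. These settings change the ratio of the library sizes, which shifts every gene alike. Bace1 has no value in that setting.

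Dividing by whole transcript length, which counts untranslated sequence, lowered the median member density from 390.3 to 161 and moved the ratio of App to Aplp1 from 2.00 to 1.62, of Itm2b to Itm2c from 2.77 to 3.45 and of App to Bace1 from 17.7 to 47.4. In the mean of both libraries App, Itm2b and Bace1 then kept their places as first, second and last, while Aplp1 passed Sncb and Aplp2 passed Itm2c. In replicate 2 Aplp1, at 359 CPM per kilobase of transcript, also stood above Itm2b at 353. Leaving out a replicate gave a median of 369.8 to 411 and an App to Adam10 ratio of 14.6 without replicate 2 and 29.6 without replicate 1. The longest coding isoform and DESeq2 size factors changed no member's call. Depth limits Bace1 most, whose 30 counts leave an interval of -0.81 to 1.69 for its log2 ratio.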

Other observations

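Lrp1, a large endocytic receptor of App and apolipoprotein E, had the most counts of the other pathway genes, 262 and 102, but spread over 13638 coding nucleotides. Its coding density was 59.4 ± 10.4 CPM per kilobase (SD, n = 2), near the median of 62.3 for coding genes: at 52.1 it lay below that library's median of 63.0 in replicate 1, and at 66.8 above the 60.7 of replicate 2. This gene was singled out after its values were seen.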
